A study of Mus musculus with 12 samples.

Results

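The clustered protocadherins are cell-surface adhesion proteins encoded by 3 neighbouring gene clusters, alpha, beta and gamma, which lie on mouse chromosome 18. Members were chosen by symbol: every gene of the deposited table named Pcdha, Pcdhb or Pcdhga, Pcdhgb or Pcdhgc with a number. This gave 58 of 56734 genes, with 14 in the alpha cluster, 22 in the beta cluster and 22 in the gamma cluster. The RNA came from projection neurons of layer 2 or layer 3 of the cerebral cortex of wild-type mouse pups at postnatal day 7 (P7) or postnatal day 3 (P3). The 4 groups, P7 layer 2, P7 layer 3, P3 layer 2 and P3 layer 3, had 3 libraries each, and each library pooled neurons from 2 to 3 pups. In every group the cells had been marked with the red fluorescent protein mCherry by timed electroporation in utero and then sorted by fluorescence, so a group holds the neurons that took up the reporter. No group carried a mutation or a drug. Library names carry 15 for layer 2 and 14 for layer 3, and the sources used here do not say what these numbers stand for.

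Each alpha and gamma transcript starts with its own variable exon, which encodes the outer part and the membrane span of the protein, and is spliced to constant exons shared by its cluster. Beta genes have no constant exons. In single neurons most variable members are switched on from few promoters chosen at random, through binding of CTCF and cohesin, while the C-type members, Pcdhac1, Pcdhac2, Pcdhgc3, Pcdhgc4 and Pcdhgc5, are known for a more uniform use. The proteins pair at the membrane and bind only matching sets on other cells, which underlies self-avoidance of branches and the shaping of dendrites, axons and synapses in the cortex. A library of many pooled neurons shows the mean over their choices and not the choice of a cell.

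Levels are in TPM (transcripts per 1000000, a value per length that sums to the same total in every library). Read depth cannot be read from them. The share of a gene's exonic bases that also belongs to another gene ranged from 36.4 to 98.3% with a median of 53.6% for 13 alpha members in the GENCODE vM21 models, and from 13.4 to 45.5% with a median of 44.8% for the 22 gamma members. For the 22 beta members it ranged from 0 to 9.67% with a median of 0%. The sources do not say how reads in shared exons were assigned, so the level of a single alpha or gamma member is uncertain in a way that a beta member's is not. For the same reason, alpha or gamma members that move together cannot be counted as separate measurements. A lower level in a sorted pool can come from fewer cells of a type or from less RNA per cell, and these cannot be told apart here.

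The markers of other cells differed between the groups. Summed TPM of 13 excitatory projection neuron markers, led by Rtn1, ranged over 6854 to 7940 in P7 layer 2, 8174 to 9341 in P7 layer 3, 4084 to 5460 in P3 layer 2 and 7068 to 7838 in P3 layer 3. The sum of 11 radial glia and progenitor markers, led by Fabp7, was 1087 to 2904, 443 to 1546, 4241 to 6989 and 752 to 1895 TPM in the same order. The sum of 16 cell cycle genes, led by Pcna, was 213 to 328, 157 to 228, 567 to 687 and 207 to 331 TPM. For 15 astrocyte markers, led by Slc1a3, the sums were 589 to 1752, 302 to 1225, 858 to 942 and 199.9 to 520 TPM, and for 13 interneuron markers, led by Npy, they were 94.1 to 128, 85.6 to 323, 207 to 286 and 201 to 313 TPM. Thus P3 layer 2 held the least neuronal and the most progenitor and cell cycle RNA, with no overlap with any other group in the first 3 sums. A set of 3 libraries stood apart. Replicate 2 of P3 layer 2 held 386 TPM over 8 choroid plexus and ependyma markers, led by Dynlrb2, against 8.995 to 264 TPM in the other 11 libraries. Replicate 1 of P7 layer 3 held the 323 TPM of interneuron markers, the highest at P7, though P3 layer 3 replicate 3 held 313 TPM. It also held 1468 TPM over 14 oligodendrocyte lineage markers, led by Mbp, against at most 869 TPM in the others. Replicate 1 of P3 layer 3 held 263 TPM over 12 vascular markers, led by Vtn, against at most 63.6 TPM in the others. No marker of these lists was at 0 in every library. The part of these other cells in the results below was not tested.

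Of the 58 members, 55 reached 1 TPM in at least 3 libraries and were tested. The 3 others were Pcdhb1, at 0 TPM in all 12 libraries, Pcdhgb8, with at most 0.509 TPM, and Pcdha8, with at most 1.56 TPM. Among the tested members 40 reached 1 TPM in every library. Pcdhb13, Pcdhga5 and Pcdhgc5 did so in fewer than 3 of the 6 P3 libraries, and Pcdhgc5 did so in all 6 P7 libraries, so that it passed the filter through the age at which it was higher. The highest mean over the 12 libraries was that of Pcdhgc3, a gamma C-type member that in mouse binds the Wnt regulator Axin1, at 37.9 TPM. Pcdhac2, the last of the alpha cluster, followed with 33.6 TPM. Within the alpha cluster Pcdha12 (20.2 TPM) and Pcdha10 (15.8 TPM) came next, within the beta cluster Pcdhb9 (12.4 TPM), Pcdhb20 (10.1 TPM) and Pcdhb17 (9.14 TPM) were highest, and within the gamma cluster Pcdhgc4 (17.2 TPM) and Pcdhga2 (16.9 TPM) followed Pcdhgc3.

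**Figure D1:**
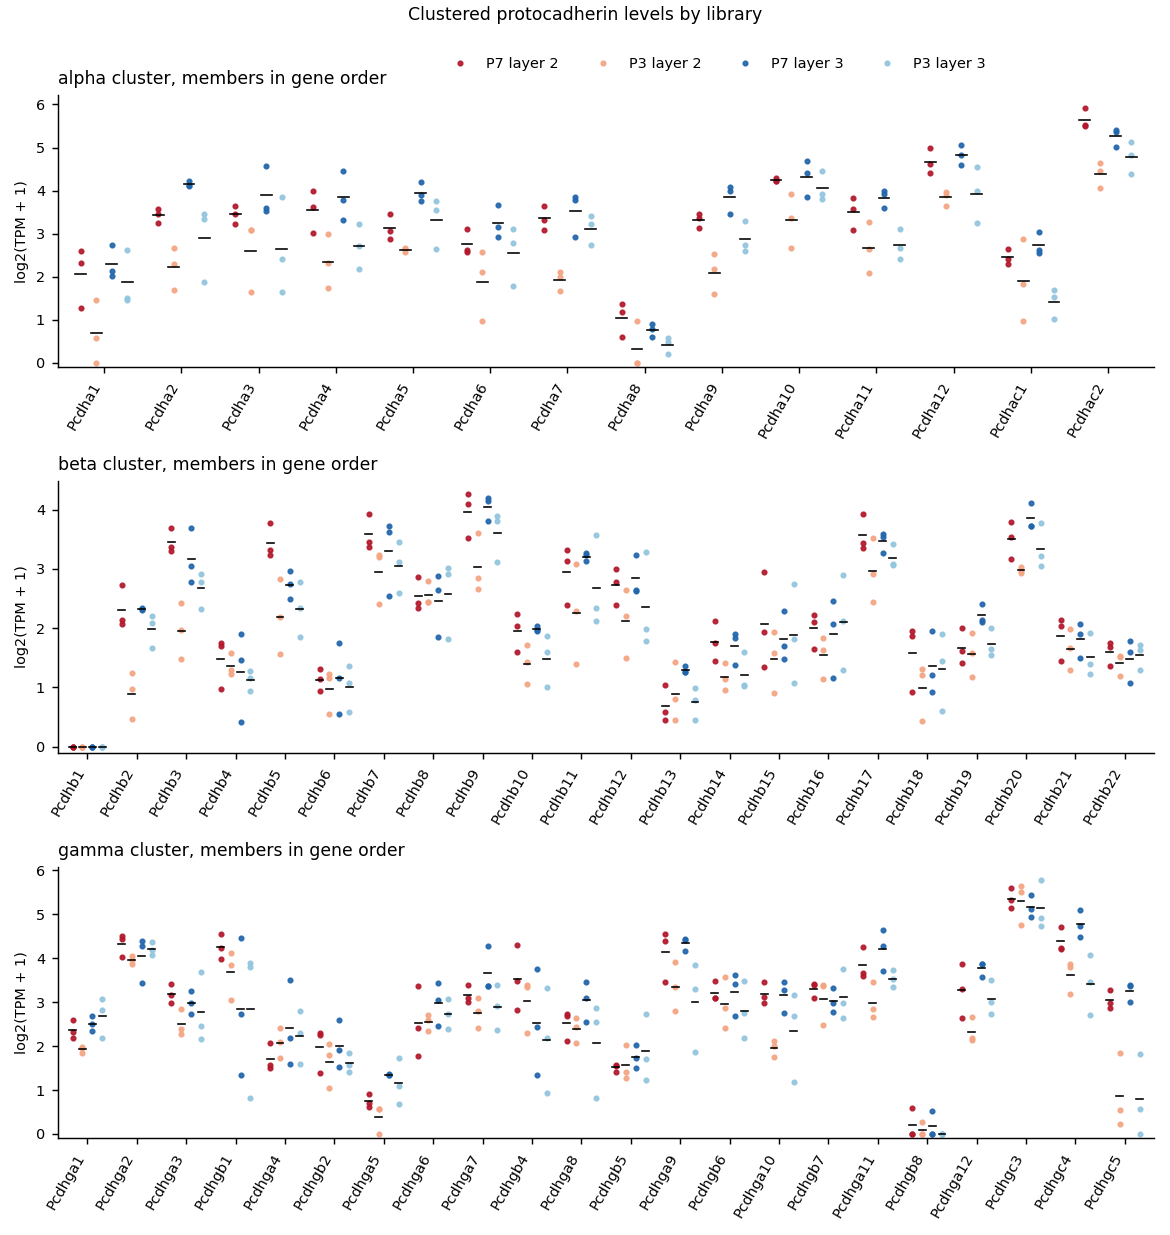
log2(TPM + 1) of the 58 members in gene order, with 1 point per library, a black line for each group's mean, and the groups P7 layer 2, P3 layer 2, P7 layer 3 and P3 layer 3 from left to right within a gene. Pcdhb1 lies at 0 throughout, Pcdhgc3 (mean 37.9 TPM) and Pcdhac2 (mean 33.6 TPM) are the highest, and the alpha members' P7 means lie above their P3 means in both layers.

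More clustered protocadherin RNA was present at P7 than at P3. Summed over all 58 members, the libraries held 499, 534 and 498 TPM in P7 layer 2 and 564, 506 and 553 TPM in P7 layer 3, against 346, 243 and 324 TPM in P3 layer 2 and 289, 487 and 329 TPM in P3 layer 3. Every P7 library lay above every P3 library, with P3 layer 3 replicate 2 at 487 TPM close to the lowest P7 value. The mean sum at P7 was 1.68 times that at P3 in layer 2 and 1.47 times in layer 3, or 1.61 and 1.30 times after median-ratio scaling of the libraries. Since the members were chosen with results of these data known, sums over them carry no p-value.

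The ratio of the ages was largest for the alpha cluster. Its summed TPM was 181, 165 and 178 in P7 layer 2 and 195, 190 and 221 in P7 layer 3, against 98.9, 58.8 and 86.8 in P3 layer 2 and 95.1, 143 and 115 in P3 layer 3. In both layers every P7 library lay above every P3 library, and the ratio of means was 2.15 in layer 2 and 1.72 in layer 3. The beta sum was 107, 135 and 101 TPM in P7 layer 2 and 116, 110 and 108 TPM in P7 layer 3, against 82.5, 47.6 and 69.7 TPM in P3 layer 2 and 67.7, 120 and 71.9 TPM in P3 layer 3. Here the ages overlapped in layer 3, through P3 layer 3 replicate 2. The gamma sum was 211, 234 and 219 TPM in P7 layer 2 and 253, 207 and 224 TPM in P7 layer 3, against 165, 137 and 167 TPM in P3 layer 2 and 127, 224 and 142 TPM in P3 layer 3, again with the overlap in layer 3 only. Ratios were 1.72 and 1.29 for the beta cluster and 1.42 and 1.39 for the gamma cluster in layers 2 and 3. After median-ratio scaling the alpha, beta and gamma ratios were 2.06, 1.65 and 1.36 in layer 2 and 1.515, 1.138 and 1.225 in layer 3.

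As a share of all clustered protocadherin TPM, the alpha members made up 34.3 ± 2.94% in P7 layer 2 and 37.4 ± 2.68% in P7 layer 3, against 26.5 ± 2.19% in P3 layer 2 and 32.4 ± 2.82% in P3 layer 3 (SD, n = 3 each). The gamma share was 43.3 ± 0.906% and 42.1 ± 2.39% at P7, against 51.8 ± 4.31% and 44.3 ± 1.49% at P3, in layers 2 and 3. The beta share stayed between 19.5 and 25.3% in all libraries. The 5 C-type members held 19.4 to 27.1% of the total in every P7 and P3 library.

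The number of members above a low level was similar in all groups, and the number above a higher level was not. Between 51 and 55 of 58 members reached 1 TPM in the P7 libraries and between 48 and 54 in the P3 libraries. At 5 TPM the counts were 34, 36 and 34 in P7 layer 2 and 35, 34 and 37 in P7 layer 3, against 26, 14 and 23 in P3 layer 2 and 25, 39 and 22 in P3 layer 3. P3 layer 3 replicate 2 was the exception at P3, with the most members over 5 TPM of all libraries. The effective number of members is the exponential of the Shannon entropy of their shares, and equals 58 if all are equally abundant. It was 37.2 to 40.4 at P7 and 35.2 to 41.0 at P3, so no library's signal came from a few members.

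**Figure D2:**
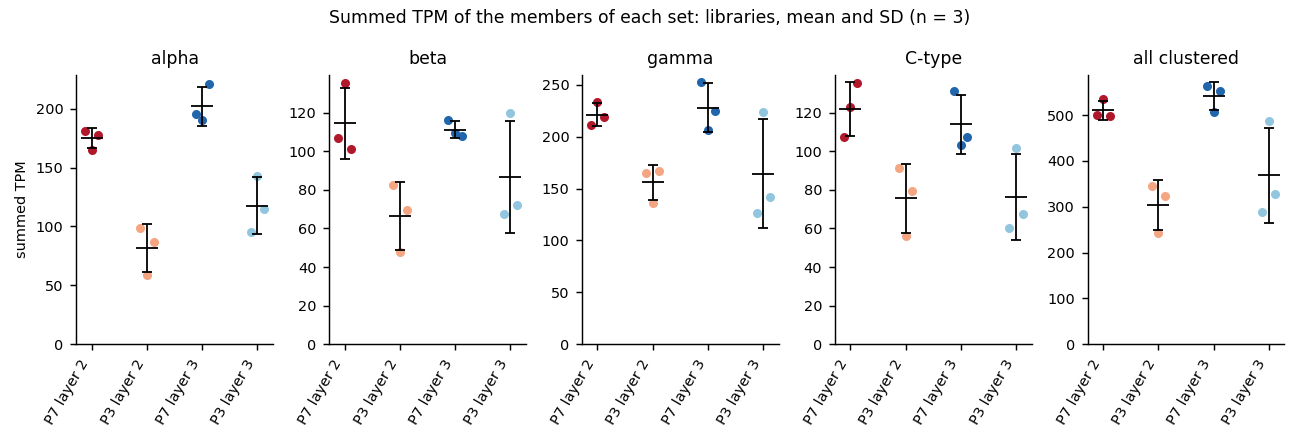
Summed TPM of the alpha, beta, gamma, C-type and all clustered members, with 1 point per library, and the mean and SD of 3 libraries, in P7 layer 2, P3 layer 2, P7 layer 3 and P3 layer 3 from left to right. The P7 sums over all members lie between 498 and 564 TPM, above the P3 sums of 243 to 487 TPM, and the alpha sum shows no overlap of the ages.

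Of the 5 C-type members, 2 were called higher at P7 in layer 2 and 3 in layer 3, and they differed in which layers gave a call. Over all tested genes 15.0% and 14.4% were called higher in these comparisons. Pcdhgc5, the last gene of the gamma cluster, held 6.26, 8.66 and 6.89 TPM in P7 layer 2, against 2.58, 0.162 and 0.464 TPM in P3 layer 2. In layer 3 it held 9.35, 9.41 and 7.05 TPM at P7, against 0.473, 2.52 and 0 TPM at P3. All 6 P7 libraries lay above all 6 P3 libraries. It rose by 2.17 ± 0.46 in layer 2 (log2 fold change on the log2(TPM + 1) scale ± SE, adjusted p = 0.00389) and by 2.46 ± 0.46 in layer 3 (adjusted p = 0.00231). Since it passed the filter on low values through P7, it was also tested with no filter, where the adjusted p was 0.0105 in layer 2 and 0.00662 in layer 3. With P3 values near 0 the size depends on the pseudocount: with pseudocounts of 0.1 and 5 it was 3.31 and 1.03 in layer 2, and 4.02 and 1.20 in layer 3, called in each. All adjusted p-values are from limma with Benjamini-Hochberg adjustment over the tested genes, which number 17606 unless another setting is named. A gene is called at an adjusted p under 0.05.

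Pcdhgc4, which in mouse is needed for the survival of cortical interneurons, held 33.0, 21.5 and 25.5 TPM in P7 layer 3, against 10.05, 15.8 and 5.51 TPM in P3 layer 3, with no overlap. It rose there by 1.36 ± 0.31 (adjusted p = 0.0082), though not when 3 libraries that stood apart were left out (adjusted p = 0.065). In layer 2 it held 17.5, 17.7 and 25.2 TPM at P7, against 13.5, 8.15 and 12.8 TPM at P3. These ranges were apart too, but the log2 fold change of 0.77 ± 0.31 was not called (adjusted p = 0.091). It was called in 4 other settings, which were the compared groups fitted alone (adjusted p = 0.0392), array weights (0.0314) and leaving out replicate 2 or replicate 3 of P3 layer 3 (0.045 and 0.0463).

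Pcdhac2, which in mouse is needed for the spacing of serotonergic axons, held 44.3, 45.1 and 59.4 TPM in P7 layer 2, against 23.9, 15.7 and 20.9 TPM in P3 layer 2. Every P7 library there was above every P3 library, and the gene rose by 1.26 ± 0.22 (adjusted p = 0.000903). In layer 3 the values were 41.5, 31.2 and 40.1 TPM at P7, against 19.8, 27.4 and 33.7 TPM at P3, which overlapped, with a log2 fold change of 0.49 ± 0.22 (adjusted p = 0.128, 95% interval 0.02 to 0.95). Pcdhac1 showed the call in the other layer. It held 4.81, 7.18 and 5.12 TPM in P7 layer 3, against 1.01, 1.86 and 2.22 TPM in P3 layer 3, and rose by 1.32 ± 0.39 (adjusted p = 0.0298), a call lost in 6 of 24 other settings, with an adjusted p of up to 0.115 when replicate 1 of P3 layer 3 was left out. In layer 2 it held 5.25, 3.91 and 4.34 TPM at P7, against 2.54, 6.32 and 0.952 TPM at P3, where P3 replicate 2 lay above all P7 libraries and the log2 fold change of 0.57 ± 0.39 was not called (adjusted p = 0.324). With the 3 libraries that stood apart left out, that replicate among them, it was 1.06 (adjusted p = 0.0354).

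Pcdhgc3, the most abundant member, showed no called age difference. It held 34.2, 47.5 and 39.2 TPM in P7 layer 2 and 42.6, 33.9 and 29.5 TPM in P7 layer 3, against 48.7, 25.9 and 44.1 TPM in P3 layer 2 and 28.9, 54.3 and 25.8 TPM in P3 layer 3. The ages overlapped in both layers. The log2 fold changes were 0.06 ± 0.28 in layer 2 (adjusted p = 0.896, 95% interval -0.54 to 0.67) and 0.02 ± 0.28 in layer 3 (adjusted p = 0.966, 95% interval -0.58 to 0.63), and their sign turned under other scalings. None of the 5 was called between the layers at either age by the same test, with 0 at an unadjusted p under 0.05 and adjusted p-values of 0.303 to 0.948. Pcdhac2 had the smallest p at each age, with opposite signs. At P3 its log2 fold change of layer 2 over layer 3 was -0.39 ± 0.22 with overlapping ranges (adjusted p = 0.303), and at P7 it was 0.39 ± 0.22 with ranges apart (adjusted p = 0.609).

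**Figure D3:**
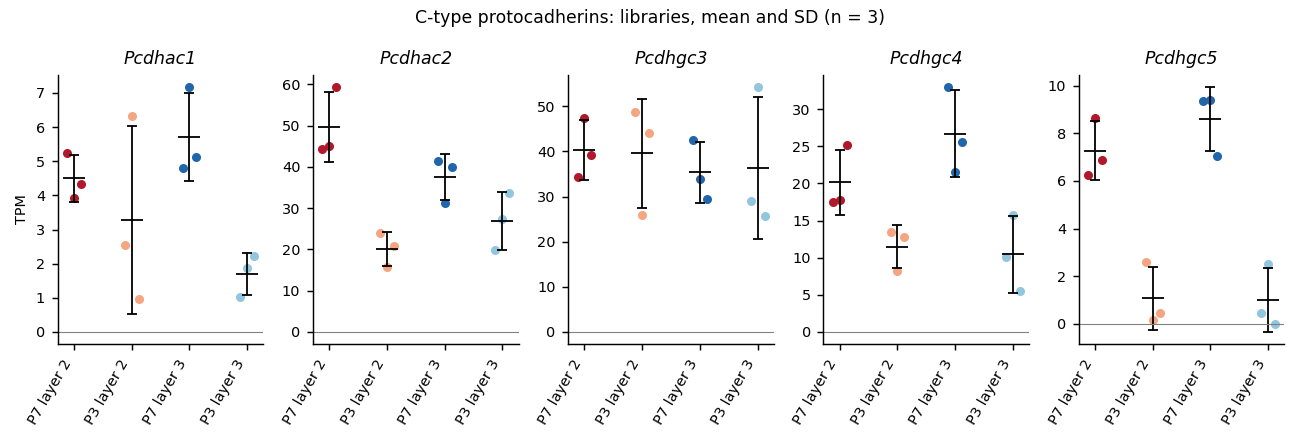
TPM of the 5 C-type members, with 1 point per library, and the mean and SD of 3 libraries, in P7 layer 2, P3 layer 2, P7 layer 3 and P3 layer 3 from left to right. Pcdhgc5 lies at 6.26 to 9.41 TPM at P7 and at 0 to 2.58 TPM at P3, whereas the libraries of Pcdhgc3 overlap throughout.

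In layer 2, 16 of the 55 tested members rose between P3 and P7 and none fell, which is 29.1% higher against 15.0% of all 17606 tested genes called higher, 9.33% called lower and 24.3% called in either direction. Fold changes were positive in 50 of 55, against 52.2% of all tested genes. Over all 58 members, tested or not, the P7 mean TPM was higher in 53, lower in 4 and equal in Pcdhb1. The TPM ranges were apart with P7 higher in 23 members (26.3% of all tested genes) and with P7 lower in none (20.3%). The median log2 fold change was 0.93 in the alpha cluster, 0.60 in the beta cluster and 0.40 in the gamma cluster, against 0.03 for all tested genes. The count dropped to 7 when replicate 2 of P3 layer 2, or replicate 1 of P7 layer 2, was left out, and to 9 when replicate 2 or 3 of P7 layer 2 was. The share of all tested genes called higher was then 10.6% and 10.9%, and 13.0% and 11.2%, so that 7 of 55 members was close to it. Leaving out all 3 libraries that stood apart gave 10 calls (13.4% of all tested genes higher), and fitting with no filter on low values gave 7 of 57 (7.64%). In the same comparison 13 of 16 cell cycle genes fell, and 6 of 13 excitatory neuron markers rose and 2 fell. Their part in the members' calls was not tested.

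In layer 3, 8 of the 55 rose and none fell, so that 14.5% were higher, close to the 14.4% called higher among all tested genes (6.42% lower, 20.8% in either direction). Fold changes were positive in 47 of 55, against 63.2% of all tested genes. Over all 58 members the P7 mean was higher in 48 and lower in 9. Ranges were apart with P7 higher in 14 members (23.2% of all tested genes) and with P7 lower in none (11.3%). Medians were 0.90, 0.34 and 0.37 in the alpha, beta and gamma clusters, against 0.17 for all tested genes. Median-ratio scaling brought the median of all genes to 0.00, the alpha median to 0.71 and the share of all genes called higher to 9.81% of 19.7% called, and left 4 members called. Leaving out replicate 1, 2 or 3 of P7 layer 3 gave 2, 4 or 3 calls. Leaving out replicate 1 of P3 layer 3 gave 3 and leaving out its replicate 2 gave 13. The share of all tested genes called higher moved with these counts: it was 9.89%, 11.1% and 10.4% in the P7 cases, and 8.86% and 21.9% in the P3 cases. There were 2 calls when all 3 libraries that stood apart were left out (8.03% of all tested genes higher), and 24 with array weights, which give libraries unequal weight by their scatter (29.4%). In this comparison 3 of 13 excitatory neuron markers rose and 6 fell, 3 of 15 astrocyte markers rose and all 15 were positive, and 1 of 13 tested oligodendrocyte lineage markers rose and all 13 were positive. Their part in the members' calls was not tested.

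Pcdha12, Pcdha2, Pcdha9 and Pcdhgc5 were called in both layers, which is 25.0% of the layer 2 calls and 50.0% of the layer 3 calls. The layer 3 calls of Pcdha12, Pcdha2 and Pcdha9 were lost in 10, 9 and 10 of 24 other settings, median-ratio scaling and quantile normalization among them, and Pcdhgc5 was the member of these 4 called in both layers in every setting. Calls in either layer numbered 20. Genes called in both layers or in either were not counted over all tested genes, so these numbers have no background here. A call in only one layer does not show a difference between the layers. The difference between the age changes of the layers, layer 2 less layer 3, was called in 0 members by limma (0.182% of all tested genes, 0.119% higher and 0.0625% lower). By the same test 4 were at an unadjusted p under 0.05. Array weights called 2, with 6.26% of all tested genes called. The difference was positive in 36 of 55, against 41.2% of all tested genes. The smallest adjusted p-values were 0.317 for Pcdhb2, with a difference of 1.08 ± 0.40 on the log2 scale, and 0.353 for Pcdhac2, with a difference of 0.78 ± 0.31.

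**Figure D4:**
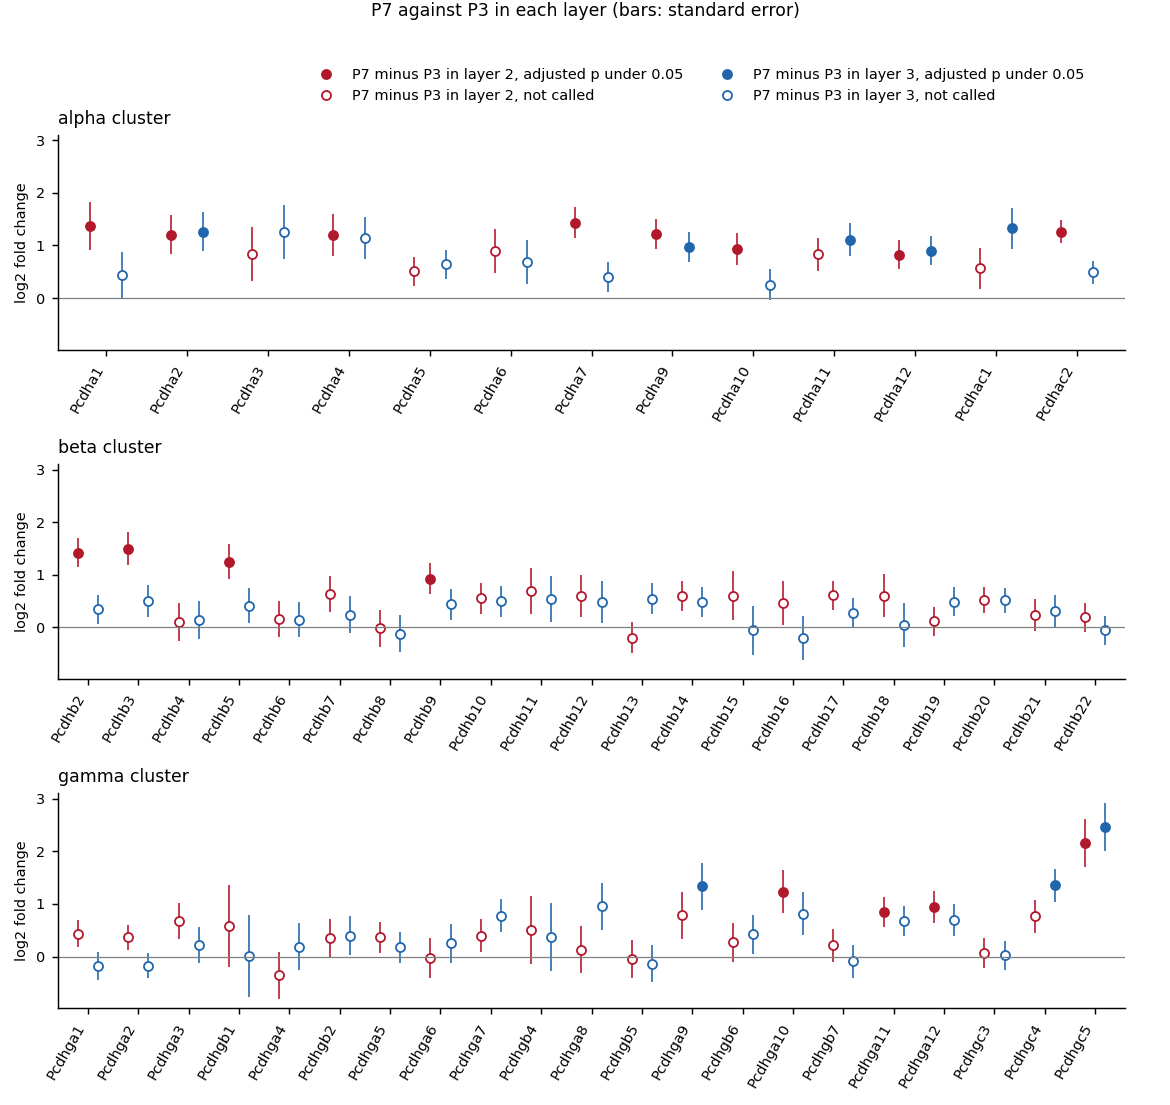
log2 fold change of P7 over P3 in layer 2 and in layer 3 for the 55 tested members in gene order, with bars for the standard error and filled points for an adjusted p under 0.05 (limma). All 13 tested alpha members are positive in both layers, Pcdhgc5 is the highest at 2.17 and 2.46, and no filled point lies below 0.

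Among the variable alpha members, Pcdha1 to Pcdha12, which differ in the outer domains that set binding partners, all 12 had a higher P7 mean in both layers. Since they share constant exons, these are not 12 separate measurements. Pcdha7 held 7.51, 8.95 and 11.6 TPM in P7 layer 2, against 3.30, 2.17 and 2.95 TPM in P3 layer 2, a rise of 1.43 ± 0.29 (adjusted p = 0.00309) without overlap. In layer 3 it held 6.54, 13.4 and 12.7 TPM at P7, against 8.31, 9.58 and 5.60 TPM at P3, which overlapped (0.40 ± 0.29, adjusted p = 0.363). Pcdha2 was called in both layers. It held 8.499, 10.8 and 10.04 TPM in P7 layer 2 and 17.7, 16.3 and 16.4 TPM in P7 layer 3, against 5.33, 2.22 and 3.93 TPM in P3 layer 2 and 9.17, 9.92 and 2.67 TPM in P3 layer 3. Its P7 libraries were above its P3 libraries in each layer, with log2 fold changes of 1.21 ± 0.37 (adjusted p = 0.0282) and 1.26 ± 0.37 (adjusted p = 0.0268).

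Pcdha12, the most abundant variable alpha member, held 30.6, 20.1 and 23.4 TPM in P7 layer 2 and 23.02, 27.2 and 32.4 TPM in P7 layer 3, against 14.5, 11.6 and 14.0 TPM in P3 layer 2 and 8.45, 14.8 and 22.3 TPM in P3 layer 3. It rose by 0.82 ± 0.28 (adjusted p = 0.0462) and 0.90 ± 0.28 (adjusted p = 0.0355) in layers 2 and 3, with ranges apart in both. These calls were lost in 13 and 10 of 24 other settings, median-ratio scaling and quantile normalization included. Pcdha10 held 17.8, 17.7 and 18.5 TPM in P7 layer 2, against 14.0, 5.33 and 9.35 TPM in P3 layer 2, and rose by 0.93 ± 0.30 (adjusted p = 0.0387). In layer 3 its ages overlapped, at 24.9, 20.4 and 13.3 TPM in P7 and 13.0, 20.9 and 14.1 TPM in P3 (0.26 ± 0.30, adjusted p = 0.589). Pcdha1, the least abundant of those called, held 4.998, 3.98 and 1.41 TPM in P7 layer 2, against 0.489, 0 and 1.76 TPM in P3 layer 2. Its ranges overlapped, and its rise of 1.38 ± 0.45 (adjusted p = 0.0406) was lost in 11 of 23 other settings. The other alpha calls were Pcdha4 and Pcdha9 in layer 2 and Pcdha9 and Pcdha11 in layer 3, with log2 fold changes of 1.20, 1.22, 0.97 and 1.11. With Pcdhac1 and Pcdhac2, 8 of 13 tested alpha members were called in layer 2 and 5 of 13 in layer 3. These are 61.5% and 38.5%, against 15.0% and 14.4% of all tested genes called higher. All 5 layer 3 calls were lost with quantile normalization and without replicate 1 of P7 layer 3 (9.8% and 9.89% of all tested genes higher). Without replicate 2 of P3 layer 2, the layer 2 calls of Pcdha1, Pcdha2, Pcdha4, Pcdha10 and Pcdha12 were lost (10.6%). Those of Pcdha7, Pcdha9 and Pcdhac2 were kept.

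Of the beta members, which lack constant exons, 4 of 21 tested were called in layer 2, which is 19.0% and near the 15.0% of all tested genes called higher. In layer 3 limma called 0 of 21, with 0 at an unadjusted p under 0.05. Array weights called 8 (29.4% of all tested genes higher), and leaving out replicate 2 of P3 layer 3 gave 1 (21.9%). Pcdhb2 held 3.43, 5.61 and 3.22 TPM in P7 layer 2, against 0.959, 1.36 and 0.386 TPM in P3 layer 2, a rise of 1.42 ± 0.28 (adjusted p = 0.00254). In layer 3 it held 4.07, 3.98 and 3.93 TPM at P7, against 2.16, 3.59 and 3.23 TPM at P3 (0.34 ± 0.28, adjusted p = 0.425). The ages did not overlap in either layer, and the 3 P3 layer 2 libraries lay below the other 9. Pcdhb3 held 9.37, 11.9 and 8.93 TPM in P7 layer 2, against 4.38, 2.91 and 1.79 TPM in P3 layer 2, a rise of 1.50 ± 0.31 (adjusted p = 0.00305) without overlap. Its layer 3 values of 5.85, 7.26 and 11.9 TPM at P7 and 6.54, 5.89 and 3.99 TPM at P3 overlapped (0.50 ± 0.31, adjusted p = 0.272).

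Pcdhb5 was called in layer 2 with a log2 fold change of 1.25 ± 0.34 (adjusted p = 0.0151), at 8.96, 12.6 and 8.44 TPM at P7 against 6.08, 1.96 and 3.56 TPM at P3. Pcdhb9, the most abundant beta member, held 16.2, 18.3 and 10.5 TPM in P7 layer 2, against 11.2, 5.34 and 6.16 TPM in P3 layer 2. Its ranges overlapped, and its rise was 0.93 ± 0.30 (adjusted p = 0.0357). Pcdhb20 held 10.7, 12.9 and 7.97 TPM in P7 layer 2, against 7.20, 6.84 and 6.65 TPM in P3 layer 2, with ranges apart but no call (0.52 ± 0.24, adjusted p = 0.135). Pcdhb17 was not called in layer 2 (0.61 ± 0.28, adjusted p = 0.127) or in layer 3 (0.28 ± 0.28, adjusted p = 0.511). The other beta members had log2 fold changes between -0.20 and 0.68 in layer 2 and between -0.21 and 0.55 in layer 3.

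Of the gamma members, 4 of 21 tested were called in layer 2 and 3 of 21 in layer 3, which is 19.0% and 14.3% and near the 15.0% and 14.4% of all tested genes called higher. The called members were of the A and C types, with 0 of 6 tested B-type members called in either layer by limma, 0 at an unadjusted p under 0.05 and 0 in every other setting. In layer 2 the A-type calls were Pcdhga10, Pcdhga11 and Pcdhga12. Pcdhga10 held 6.94, 7.70 and 10.02 TPM at P7 against 3.35, 2.36 and 3.02 TPM at P3, with ranges apart and a rise of 1.23 ± 0.41 (adjusted p = 0.0423). Pcdhga11 and Pcdhga12 rose by 0.85 ± 0.29 (adjusted p = 0.0444) and 0.94 ± 0.31 (adjusted p = 0.0396). These 3 calls were lost in 10, 10 and 9 of 24 other settings. In layer 3 the A-type call was Pcdhga9, at 17.0, 20.7 and 20.5 TPM at P7 against 2.64, 8.91 and 13.4 TPM at P3. Its ranges were apart, its P3 values spread widely, and its rise of 1.34 ± 0.44 (adjusted p = 0.0471) was lost in 15 other settings. Pcdhga2, the most abundant A-type member, was not called. It held 21.7, 20.7 and 15.4 TPM in P7 layer 2 and 18.4, 9.86 and 20.0 TPM in P7 layer 3, against 14.5, 13.7 and 15.7 TPM in P3 layer 2 and 19.8, 15.8 and 17.3 TPM in P3 layer 3 (0.36 ± 0.24, adjusted p = 0.294, and -0.18 ± 0.24, adjusted p = 0.643).

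Between the layers at P7 limma called 0 of 55 members (0.500% of all tested genes, 0.119% higher and 0.381% lower), with 1 at an unadjusted p under 0.05 and 0 called with array weights or any other setting. Fold changes were positive in 20 of 55, against 44.4% of all tested genes. The member with that p was Pcdha5, at 9.91, 7.40 and 6.33 TPM in P7 layer 2 against 12.4, 13.8 and 17.3 TPM in P7 layer 3, apart and lower in layer 2 (-0.82 ± 0.28, adjusted p = 0.313). The next was Pcdhb5, at 8.96, 12.6 and 8.44 TPM in P7 layer 2 against 5.67, 4.62 and 6.84 TPM in P7 layer 3, apart and higher in layer 2 (0.71 ± 0.34, adjusted p = 0.519). The ranges were apart in 2 members with layer 2 higher (8.14% of all tested genes) and in 5 with layer 2 lower (11.9%). The median log2 fold change was -0.30 in the alpha cluster, where 12 of 13 tested members were negative, 0.07 in the beta cluster and -0.21 in the gamma cluster, against -0.04 for all tested genes.

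At P3, 2 of 55 members were lower in layer 2 and none was higher, which is 3.64% lower against 4.18% of all tested genes called lower, 4.87% called higher and 9.05% called in either direction. Fold changes were positive in 13 of 55, against 56.2% of all tested genes. The called members were Pcdha7 and Pcdhb2, 2 of the members that rose with age in layer 2. Pcdha7 held 3.30, 2.17 and 2.95 TPM in P3 layer 2, against 8.31, 9.58 and 5.60 TPM in P3 layer 3 (-1.20 ± 0.29, adjusted p = 0.0229). Pcdhb2 held 0.959, 1.36 and 0.386 TPM in P3 layer 2, against 2.16, 3.59 and 3.23 TPM in P3 layer 3 (-1.09 ± 0.28, adjusted p = 0.03). Both had ranges apart. At P7 neither was called, with log2 fold changes of -0.16 ± 0.29 for Pcdha7 (adjusted p = 0.903) and -0.0044 ± 0.28 for Pcdhb2 (adjusted p = 0.998). The age comparison and the P3 layer comparison share the P3 layer 2 libraries.

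The ranges at P3 were apart with layer 2 lower in 8 members (11.0% of all tested genes) and with layer 2 higher in none (16.0%). All 12 variable alpha members had a lower mean in P3 layer 2 than in P3 layer 3, and the alpha median log2 fold change was -0.67, against -0.17 in the beta cluster, -0.12 in the gamma cluster and 0.06 for all tested genes. With replicate 2 of P3 layer 2 left out the alpha median was -0.23, and with array weights the beta and gamma medians were 0.06 and 0.11. Leaving out replicate 1, 2 or 3 of P3 layer 2 gave 1, 1 or 0 calls. Of all tested genes 6.99%, 3.78% and 5.18% were then called in either direction. Leaving out replicate 1, 2 or 3 of P3 layer 3 gave 1, 0 or 4 calls, with 6.23%, 11.3% and 5.68% of all tested genes called. The neuronal, progenitor and cell cycle sums given above moved with this comparison, as did 7 of 15 astrocyte markers, called higher in layer 2, and their part in it was not tested.

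**Figure D5:**
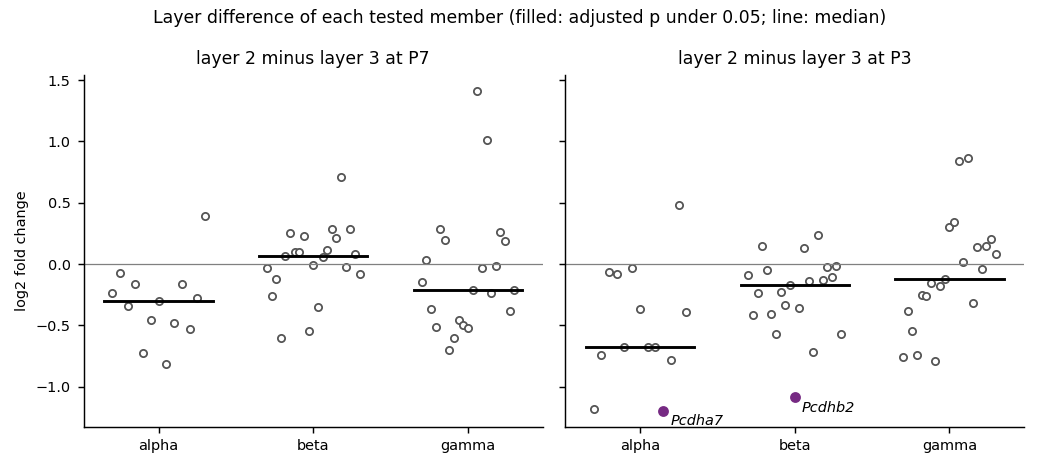
log2 fold change of layer 2 over layer 3 at P7 and at P3 for each tested member of the alpha, beta and gamma clusters, with a line at each cluster's median and filled points for an adjusted p under 0.05 (limma). The alpha medians lie at -0.30 at P7 and -0.67 at P3, and the filled points are Pcdha7 and Pcdhb2 at P3.

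Some members varied more between libraries of a group than others. The pooled SD of log2(TPM + 1) within groups had a median of 0.44 over the 55 tested members. It was 0.39 over 3518 tested genes with means between the members' lower and upper quartiles (2.88 to 9.19 TPM). The members' own means reached below and above that range, so these medians are not over the same levels. The pooled SD was widest for the B-type gamma members Pcdhgb1 (1.21) and Pcdhgb4 (0.98). Pcdhgb1 held 22.5, 17.7 and 14.9 TPM in P7 layer 2 and 5.64, 1.52 and 20.9 TPM in P7 layer 3, against 7.33, 13.3 and 16.5 TPM in P3 layer 2 and 0.760, 13.8 and 12.9 TPM in P3 layer 3. Its spread lay mainly in layer 3, where replicates 1 and 2 were low at P7 and replicate 1 was low at P3. Pcdhgb4 held 6.04, 18.6 and 10.1 TPM in P7 layer 2 and 1.53, 4.43 and 12.6 TPM in P7 layer 3, against 3.94, 9.19 and 9.55 TPM in P3 layer 2 and 0.921, 3.54 and 8.99 TPM in P3 layer 3. Replicate 1 of P3 layer 3 and replicates 1 and 2 of P7 layer 3 were low in both genes, while replicate 2 of P3 layer 3 was low in Pcdhgb4 (3.54 TPM) and not in Pcdhgb1 (13.8 TPM). The genes share constant exons and libraries.

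Across the 12 libraries, the member whose log2(TPM + 1) was most like that of Pcdhgc5 was Pcdhgc4 (Pearson r = 0.91), followed by Pcdha2 (0.858) and Pcdhga10 (0.848). Pcdhac2 was most like Pcdha9 (0.82), Pcdhac1 most like Pcdhga9 (0.761) and Pcdhgc3 most like Pcdhgb7 (0.883). These values describe points that share 4 groups, and members of a cluster share exons. The median r over pairs was 0.683 for 78 alpha pairs, 0.393 for 210 beta pairs and 0.29 for 210 gamma pairs. Between clusters it was 0.508 for alpha with beta, 0.398 for alpha with gamma and 0.34 for beta with gamma. With the group means removed, the medians within clusters were 0.252, 0.288 and 0.165, so the order of the clusters was not kept within groups. Those between clusters were then 0.255, 0.207 and 0.226.

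The regulators of the clusters were examined as a list of 24 names, 23 of them in the table and tested. CTCF and cohesin link the promoters to distant enhancers, and DNA methylation and SETDB1 complexes keep promoters silent. In layer 2, 1 regulator rose and 4 fell, or 4.35% and 17.4%, against 15.0% and 9.33% of all tested genes. Dnmt3a, a DNA methyltransferase, averaged 27.0 ± 1.97 TPM in P7 layer 2 and 14.6 ± 0.263 TPM in P3 layer 2 (log2 fold change 0.84, adjusted p = 0.00801). The cohesin subunits Rad21 (-0.52, adjusted p = 0.0276) and Smc3 (-0.46, adjusted p = 0.0447), Ctcf (-0.44, adjusted p = 0.0459) and the corepressor Trim28 (-0.31, adjusted p = 0.0338) fell. Ctcf averaged 43.8 ± 7.19 TPM in P7 layer 2 and 59.3 ± 5.63 TPM in P3 layer 2. In layer 3, 1 regulator, Dnmt3a, rose (0.93, adjusted p = 0.00544) and 0 of 23 fell by limma (14.4% and 6.42% of all tested genes), with 3 at an unadjusted p under 0.05 in either direction. No regulator was called between the layers by limma, with 0 at an unadjusted p under 0.05 at P7 and 2 at P3. Of all tested genes 0.500% were called between the layers at P7 and 9.05% at P3.

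The 28 signalling partners and cleaving proteases include the kinases PTK2 and PTK2B that alpha and gamma proteins inhibit, members of the WAVE actin complex that bind Pcdh proteins, and the proteases that release the intracellular part. In layer 2, 9 rose and 1 fell, or 32.1% and 3.57%, against 15.0% and 9.33% of all tested genes. In layer 3, 12 rose and 2 fell, or 42.9% and 7.14%, against 14.4% and 6.42%. The WAVE subunit Wasf1 averaged 626 ± 11.8 TPM in P7 layer 2 and 610 ± 55.5 TPM in P7 layer 3, against 178 ± 34.5 TPM in P3 layer 2 and 212 ± 49.6 TPM in P3 layer 3, with log2 fold changes of 1.82 and 1.54 (adjusted p = 6.64e-06 and 4.31e-05). Ptk2b averaged 105 ± 18.6 and 120 ± 0.839 TPM at P7, against 27.8 ± 7.80 and 65.4 ± 5.33 TPM at P3, in layers 2 and 3. It rose by 1.90 in layer 2, and was lower in layer 2 than in layer 3 at P3 (-1.24, adjusted p = 0.00147). Nlgn1, an adhesion protein that binds gamma members, rose by 1.31 in layer 2, and the receptor Ret by 1.21 there and 1.20 in layer 3. Nckap1, of the WAVE complex, and the kinase Prkca rose by 1.41 and 0.99 in layer 3. Psenen, a gamma-secretase subunit, fell by 0.77 in layer 2 and by 0.54 in layer 3, and Marcksl1 fell by 0.45 in layer 3.

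The non-clustered protocadherins, single genes outside the 3 clusters, were 12 in number with 11 tested. In layer 2, 5 rose and 0 fell by limma, and in layer 3, 4 rose and 0 fell, so that 45.5% and 36.4% were higher, against 15.0% and 14.4% of all tested genes, with no other member at an unadjusted p under 0.05 in layer 2 and 1 in layer 3. Pcdh11x averaged 13.6 ± 3.77 TPM in P7 layer 2 and 16.1 ± 1.40 TPM in P7 layer 3, against 2.12 ± 1.06 TPM in P3 layer 2 and 2.36 ± 1.80 TPM in P3 layer 3, with log2 fold changes of 2.25 and 2.51. Pcdh19 rose by 1.42 and 1.11 and Pcdh1 by 0.89 and 0.83 in layers 2 and 3, Pcdh7 by 0.92 in layer 2 and Pcdh10 by 0.88 in layer 3. Between the layers Pcdh20 was lower in layer 2 at P7 (3.91 ± 2.03 against 18.03 ± 2.62 TPM, log2 fold change -2.05, adjusted p = 0.0197) and at P3 (-1.27, adjusted p = 0.0335), as was Pcdh7 at P3 (-0.69, adjusted p = 0.0136).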

How the data were processed

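Per the submitters' processing notes, HISAT2, StringTie and featureCounts were used with GRCm39. Versions, strandedness and the handling of reads that several genes share are not given in the sources used here. The labels' protocols name an RNeasy mini kit for the RNA and a SMART-Seq mRNA LP kit for the libraries. The deposited table holds the authors' TPM for 56734 genes in 12 columns that each sum to 1000000, so depth and the precision it gives are unknown.

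A gene was tested when 3 or more libraries reached 1 TPM (17606 genes, of 30388 above 0). Values were fitted as log2(TPM + 1), a scale that understates changes of low genes, by limma 3.58.1 in R 4.3.3 with a trended prior and the 4 group means as coefficients (8 residual degrees of freedom). The comparisons were P7 against P3 in each layer, layer 2 against layer 3 at each age, and the difference of the age changes. Adjustment was Benjamini-Hochberg over all tested genes. For a single gene, the smallest p of an exact permutation test at 3 against 3 is 0.1. Replicates are separate pools of pups.

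All members matched the RefSeq table and 57 matched GENCODE vM21, both on GRCm38, used for gene order and exon overlap. No sequence or coordinate is given.

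The members and lists were chosen with earlier results of these data known. Named were the 5 C-type members, the 3 most abundant per cluster, up to 5 called members per direction and comparison by size of change (or the 2 nearest to a call), up to 4 called members per direction of 3 related lists, and the leading gene of each marker list used (1 marker list is not reported here). Other called members, Pcdhgb1 and Pcdhgb4 were named after their values were seen. The alternatives tried were a pseudocount of 0.1 or of 5, a filter of 5 TPM or none, 3 rescalings, compared groups alone, a replicate block, array weights, robust moderation, a fold change of at least 1 on the log2 scale, each library left out in turn, and leaving out the 3 libraries that stood apart (P7 layer 3 replicate 1, P3 layer 2 replicate 2 and P3 layer 3 replicate 1).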

Additional observations from a re-analysis of the deposited data

How the results depend on the processing

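Of 26 calls of members, 7 held in every setting run in which the member was tested: Pcdha7, Pcdha9, Pcdhac2, Pcdhb2, Pcdhb3 and Pcdhgc5 for age in layer 2, and Pcdhgc5 for age in layer 3. None of the 26 changed sign. The age medians of all 3 clusters stayed above 0 in every setting. The count for age in layer 2 (16) was 7 with no filter and 10 without the 3 libraries that stood apart, and 7 to 17 with 1 library left out. The count for age in layer 3 (8) was 3 with no filter, 4 with median-ratio scaling, 2 with quantile normalization and 4 with the compared groups alone. Of all tested genes 6.92%, 9.81%, 9.8% and 9.97% were then called higher. The layer 3 count was 24 with array weights (29.4%) and 2 without the 3 libraries (8.03%), and 2 to 13 with 1 library left out. The count between the layers at P3 (2) was 1 with no filter, with a filter of 5 TPM, with the compared groups alone or without the 3 libraries. These settings called 3.68%, 11.2%, 6.43% and 3.47% of all tested genes in either direction. The P3 count was 4 with quantile normalization (10.4%) and 9 with array weights (2 higher and 7 lower, 29.6%), and 0 to 4 with 1 library left out. The count between the layers at P7 was 0 throughout, and that for the difference of age changes was 0 except for 2 with array weights (6.26% of all tested genes). The cause of these moves was not tested. The age change of Pcdhgc3, never called, turned negative in layer 2 with quantile normalization (-0.082), array weights (-0.11) and without the 3 libraries (-0.21), and ranged from -0.21 to 0.23 with 1 library left out. In layer 3 it turned negative with median-ratio scaling (-0.17), quantile normalization (-0.21), without mitochondrial, ribosomal protein and haemoglobin genes (-0.0083) and without the 3 libraries (-0.24), and ranged from -0.18 to 0.35. Deviations of same-numbered libraries from their group means correlated at -0.189 to 0.214, over 0.1 in 5 of 18 pairs. With 3 libraries a group these values cannot decide whether replicate numbers pair the libraries. The replicate block gave 14, 9, 0, 2 and 0 calls for age in layer 2, age in layer 3, layers at P7, layers at P3 and the difference. In the same order it called 23.2%, 18.9%, 0.386%, 8.66% and 0.176% of all tested genes in either direction. TPM carry no depth, so counting error is unknown, and reads in shared exons limit what single alpha and gamma values show.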
